A study of Mus musculus with 36 samples.

Results

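The 8 genes described here are the peroxisome proliferator-activated receptors Ppara, Ppard and Pparg, the coactivators Ppargc1a and Ppargc1b, and the nuclear receptors Rxra, Esrra and Hnf4a. They were chosen by symbol, and each has 1 row among the 24066 genes with a unique symbol in the deposited kidney tables, with a value in all 36 libraries. The mice were male, wild-type C57BL/6J animals with free access to 1 of 2 diets, normal chow or high-fat, which they entered at 6 weeks of age, and harvest is labelled as 16 weeks. Light and darkness alternated every 12 h, and zeitgeber time (ZT) is the number of hours after the lights came on. Kidneys were collected at ZT0, 4, 8, 12, 16 and 20 with 3 mice per diet and time, which gives 12 groups. No group carries a transgene or a deletion, and both diets share strain, sex, genotype and light schedule. The composition of the diets is not given in the sources used here. The label that holds the diet names ZT3 in every sample, which is none of the 6 times, so the times were taken from the sample titles.

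Peroxisome proliferator-activated receptors are nuclear receptors that bind fatty acids and their derivatives and, paired with a retinoid X receptor such as Rxra, bind DNA at direct repeats of a short half-site. PPAR alpha and delta are known for switching on fatty acid uptake and mitochondrial and peroxisomal oxidation, and PPAR gamma for fat cell formation and lipid storage. The PGC-1 coactivators, encoded by Ppargc1a and Ppargc1b, have no DNA-binding activity of their own and act through such receptors and through the estrogen-related receptor alpha (Esrra) to raise mitochondrial genes. Hnf4a, an orphan receptor of the same superfamily, is a defining transcription factor of the proximal tubule, the kidney segment with the heaviest use of fatty acids as fuel.

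The promoters of Ppard and Ppara are shown because these were the only members that passed a test for a daily rhythm among the 7 tested, and both also differed in level between diets. In GRCm38 (GENCODE M21), Ppard lies on the plus strand of chromosome 17 from 28232700 to 28301474 and Ppara on the plus strand of chromosome 15 from 85734983 to 85802819. The 250 bases upstream of the RefSeq start (GRCm38.p6) follow, 5′ to 3′ on the gene's strand, with each GC box (GGGCGG, searched on both strands) in capitals. The Ppard stretch is chr17:28232504-28232753 and the Ppara stretch chr15:85735526-85735775.
Ppard: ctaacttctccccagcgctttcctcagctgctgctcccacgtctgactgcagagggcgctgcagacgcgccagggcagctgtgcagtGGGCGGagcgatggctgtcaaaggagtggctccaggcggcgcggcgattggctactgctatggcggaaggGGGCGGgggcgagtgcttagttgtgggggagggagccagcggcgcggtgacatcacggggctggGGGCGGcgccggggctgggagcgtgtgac
Ppara: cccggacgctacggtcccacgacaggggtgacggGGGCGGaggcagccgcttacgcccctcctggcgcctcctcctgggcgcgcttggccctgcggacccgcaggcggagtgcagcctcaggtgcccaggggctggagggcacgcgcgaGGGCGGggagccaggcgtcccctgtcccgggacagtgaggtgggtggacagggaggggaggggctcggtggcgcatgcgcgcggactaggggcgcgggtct
The Ppard stretch held 3 GC boxes, at positions -163, -93 and -29 relative to the start site, and the Ppara stretch held 2, at -216 and -101. A GC box occurred in 35.7% of the 32851 RefSeq promoter windows, which run from 250 bases before to 50 after the start. In the full windows, which were 68.3% GC for Ppard and 74.7% GC for Ppara, neither an E-box (CACGTG, 7.15% of all windows), an E′-box (CACGTT, 4.68%), a D-box (TTANNTAA, 6.00%), nor a nuclear receptor half-site (AGGTCA, 16.3%) was present on either strand. A direct repeat of that half-site with 1 base between, in which each single half-site is also counted, occurred in 0.04% of all windows and in neither of these. RefSeq windows of 7 of the 8 members were searched, and the remaining member was left out of the search. These matches describe letters in a short window only.

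The other members lie on chromosome 6 from 115360951 to 115490399 (Pparg), chromosome 5 from 51454250 to 51567726 (Ppargc1a), chromosome 18 from 61298136 to 61400431 (Ppargc1b), chromosome 2 from 27676440 to 27762957 (Rxra), chromosome 19 from 6910977 to 6921813 (Esrra) and chromosome 2 from 163506808 to 163572910 (Hnf4a). Each value is FPKM for the whole gene, that is, fragments divided by transcript length and by library size, so transcript isoforms such as those that start at different promoters of Pparg or Ppargc1a were not separated.

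The kidney identity of the libraries and the presence of other tissue were checked first. All 10 proximal tubule markers and all 12 markers of other kidney segments were detected in every library. Summed FPKM of 14 fat cell markers was 134 to 2102 in normal chow libraries and 29.7 to 448 in high-fat libraries. The markers were not uniform. Cfd alone averaged 408 FPKM for normal chow and 16.0 for high-fat, while Lep was higher under the high-fat diet. Summed FPKM of 11 adrenal markers was at most 1.34 in every high-fat library. It was between 66.2 and 3808 in 4 normal chow libraries (ZT0 replicate 5, ZT4 replicates 2 and 3, ZT16 replicate 4) and at most 2.62 in the other 14. Summed FPKM of 8 immune markers was 179 to 381 for normal chow and 232 to 538 for high-fat. Relative depth, estimated from the steps between low values, ranged from 0.325 to 1.39 across libraries with means of 1.01 ± 0.255 for normal chow and 0.916 ± 0.281 for high-fat (SD, n = 18 each). Absolute depth is unknown. The slope of log2 FPKM on transcript GC content ran from -0.40 to 0.45 per 10 percentage points of GC, both extremes in normal chow ZT4 libraries (replicates 4 and 2).

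Levels of the 8 genes spanned a wide range, in the order Hnf4a, Esrra, Rxra, Ppard, Ppara, Ppargc1a, Pparg and Ppargc1b. Mean FPKM over the 36 libraries was 142 for Hnf4a, 69.8 for Esrra, 28.1 for Rxra and 15.7 for Ppard. It was 9.22 for Ppara, 3.48 for Ppargc1a, 1.74 for Pparg and 0.904 for Ppargc1b. Hnf4a exceeded Esrra, Esrra exceeded Rxra and Ppara exceeded Ppargc1a in 36 of 36 libraries. Rxra, the shared partner, exceeded Ppard in 31 of 36. Ppargc1a exceeded Pparg in 33 of 36 and Pparg exceeded Ppargc1b in 29 of 36. Ppard and Ppara had no fixed order, with Ppard the higher of the pair in 18 of 36 libraries.

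Which of the PPAR receptors was the more abundant depended on the hour. At ZT0 and ZT20, around the change from dark to light, Ppard exceeded Ppara in all 3 libraries of each diet, with a median ratio at ZT0 of 6.79 for normal chow and 2.61 for high-fat. At ZT8, Ppara exceeded Ppard in all 3 libraries of each diet, and the median Ppard to Ppara ratio was 0.470 for normal chow and 0.317 for high-fat. At ZT4 the diets fell on different sides of equality: the ratio was above 1 in 2 of 3 normal chow libraries and in 0 of 3 high-fat libraries.

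**Figure D1:**
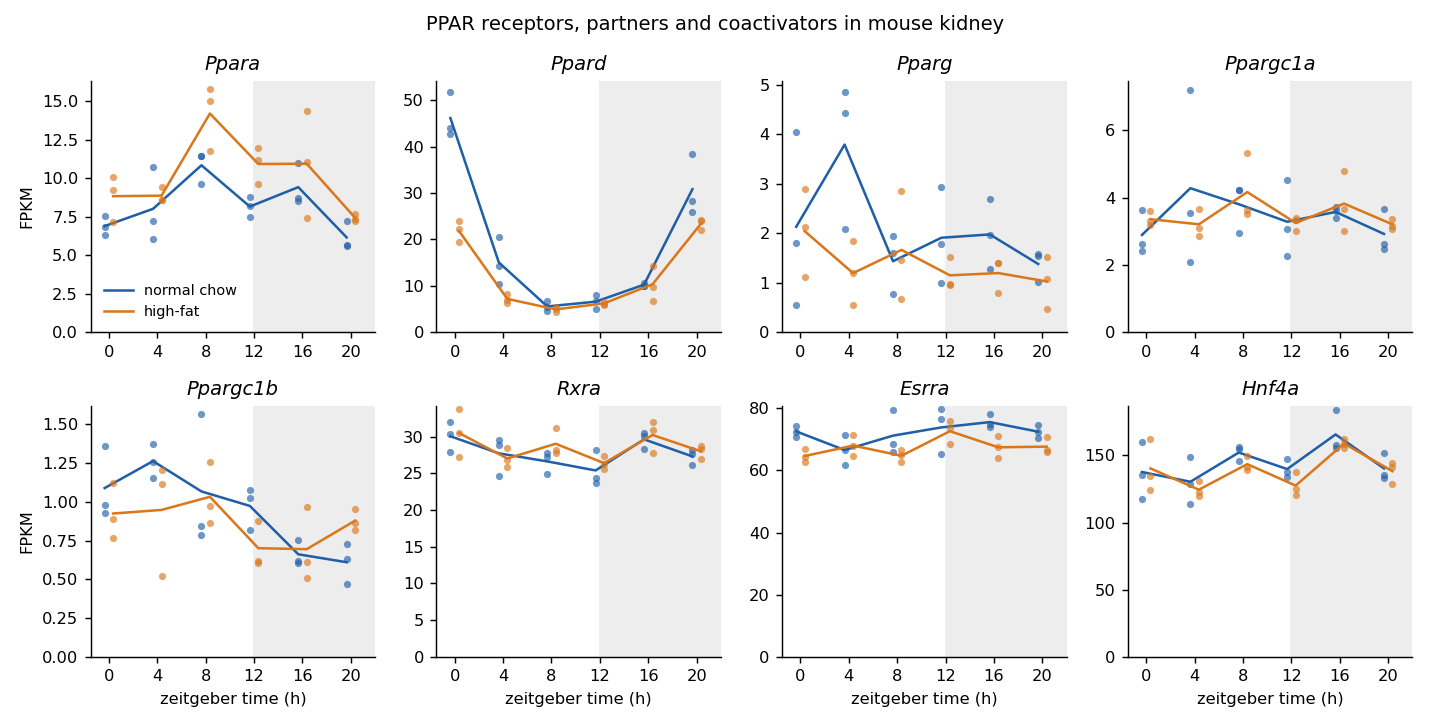
FPKM of each member (vertical axes, linear, each from 0) against zeitgeber time in hours, with 1 point per library, lines through the means of 3 libraries, normal chow in blue, high-fat in orange and the dark phase shaded. Ppard under normal chow lies between 42.6 and 51.8 at ZT0 and between 4.52 and 6.73 at ZT8, while Rxra, Esrra and Hnf4a stay in narrow bands.

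Ppard, which encodes PPAR delta, had the largest daily swing of the 8. Under normal chow its FPKM at ZT0 was 51.8, 44.0 and 42.6, and at ZT4 it was 20.4, 14.2 and 10.4. At ZT8 it was 4.52, 5.38 and 6.73, and at ZT12 it was 4.99, 7.99 and 6.72. At ZT16 it was 10.6, 10.1 and 10.02, and at ZT20 it was 28.2, 25.9 and 38.3. The 6 libraries of ZT0 and ZT20 were all above the other 12, and the 6 of ZT8 and ZT12 were all below them. The mean at ZT0, 46.1 ± 4.91 (SD, n = 3), was 8.32 times that at ZT8, 5.54 ± 1.11 (SD, n = 3).

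Ppard under the high-fat diet again was high around lights on and low in the second part of the light phase. Values at ZT0 were 19.3, 24.1 and 22.1, at ZT4 7.01, 6.31 and 8.21, and at ZT8 4.33, 5.00 and 5.37. At ZT12 they were 6.15, 6.60 and 5.86, at ZT16 9.82, 6.82 and 14.3, and at ZT20 23.95, 22.01 and 24.2. ZT0 and ZT20 were again above all other times, but their values overlapped each other, whereas under normal chow each ZT0 library lay above each ZT20 library. The highest group mean, 23.4 ± 1.19 (SD, n = 3) at ZT20, was 4.77 times the lowest, 4.90 ± 0.527 (SD, n = 3) at ZT8.

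A daily rhythm was tested with a cosine and a sine of 24 h in limma on log2(FPKM + 0.5), over the 11144 genes with a mean of at least 1 FPKM and separately in the 18 libraries of each diet, with Benjamini-Hochberg adjustment and a threshold of 0.05. Every fold change from a fit is on the scale with the added 0.5, so that of a gene with low values is too small. Ratios of group means use FPKM without the 0.5. Ppard passed in both diets. Its fitted peak-to-trough difference under normal chow was 2.98 ± 0.22 (log2, SE), or 7.91-fold, with a peak at 22.6 ± 0.28 h (limma, adjusted p = 4.84e-07). In the high-fat libraries it was 2.28 ± 0.19 (SE), or 4.86-fold, with a peak at 21.3 ± 0.31 h (limma, adjusted p = 1.02e-06). The rhythm was kept in all 32 alternative settings for normal chow (2.62 to 3.13) and all 31 for the high-fat diet (2.15 to 2.54).

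In both diets Ppara had its highest mean at ZT8, the time of the lowest Ppard mean. Peak times of these genes were not tested against each other. The FPKM of Ppara under normal chow was 6.85, 7.53 and 6.28 at ZT0, 6.05, 7.22 and 10.8 at ZT4, and 11.4, 11.5 and 9.63 at ZT8. It was 8.80, 7.47 and 8.20 at ZT12, 10.99 (replicate 1), 8.71 and 8.54 at ZT16, and 7.19, 5.67 and 5.59 at ZT20. All ZT8 libraries were above all ZT20 libraries, and the means differed by 1.76 times. These are the times of the highest and lowest mean, a choice that favours a gap. The fitted peak-to-trough difference was 0.58 ± 0.16 (log2, SE), with a peak at 9.90 ± 1.07 h, and it missed the threshold (limma, adjusted p = 0.0755). It passed in 6 of 32 alternatives, among them the scaling of libraries by their median ratio (adjusted p = 0.0420) and leaving out replicate 4 of ZT4 (0.0453) or replicate 3 of ZT12 (0.0440).

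High-fat libraries had Ppara values of 10.1, 9.21 and 7.18 at ZT0, 8.61, 9.43 and 8.56 at ZT4, and 15.003, 15.8 and 11.8 at ZT8. They were 12.0, 11.2 and 9.62 at ZT12, 14.4, 11.03 and 7.39 at ZT16, and 7.23, 7.37 and 7.67 at ZT20. Each ZT8 library was above each ZT20 library here too, by 1.91 times in the means, and these again are the times of the highest and lowest mean. The peak-to-trough difference was 0.68 ± 0.16 (log2, SE), or 1.60-fold, with a peak at 9.82 ± 0.92 h, and it passed (limma, adjusted p = 0.0362). The call was lost in 10 of 31 alternatives, with adjusted p up to 0.123 without ZT0 and ZT4, 0.0795 without the filter on low values, and between 0.057 and 0.0812 in 8 of the 18 fits that each left out 1 high-fat library.

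Pparg and the remaining members showed no rhythm that passed. Of the 7 members tested, 1 passed under normal chow, where 7.77% of all genes did, and 2 under the high-fat diet, where 7.3% did. Peak-to-trough differences under normal chow were 0.50 ± 0.40 for Pparg, 0.30 ± 0.24 for Ppargc1a, 0.16 ± 0.08 for Rxra, 0.14 ± 0.07 for Esrra and 0.22 ± 0.10 for Hnf4a (log2, SE). For high-fat they lay between 0.09 and 0.31 for these 5 genes. Hnf4a had its highest mean at ZT16 and its lowest at ZT4 in both diets, with no overlap between these times, and the ratio of the means was 1.27 for normal chow and 1.28 for high-fat. Picking the times of the highest and lowest mean favours such a gap, and its share over all genes was not computed. The means of Hnf4a alternated down and up from ZT0 to ZT20, through 138, 130, 152, 140, 166 and 140 FPKM for normal chow and 140, 125, 144, 128, 159 and 138 for high-fat. With time as a factor, in place of a 24 h wave, Hnf4a passed in the high-fat libraries (limma, adjusted p = 0.0373). In that setting 3166 of 11144 genes passed, against 813 with the 24 h wave. For normal chow Hnf4a passed in none of the 32 alternatives. The normal chow rhythm of Esrra passed after a correction for transcript GC content in each library (0.31, limma, adjusted p = 0.0277).

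**Figure D2:**
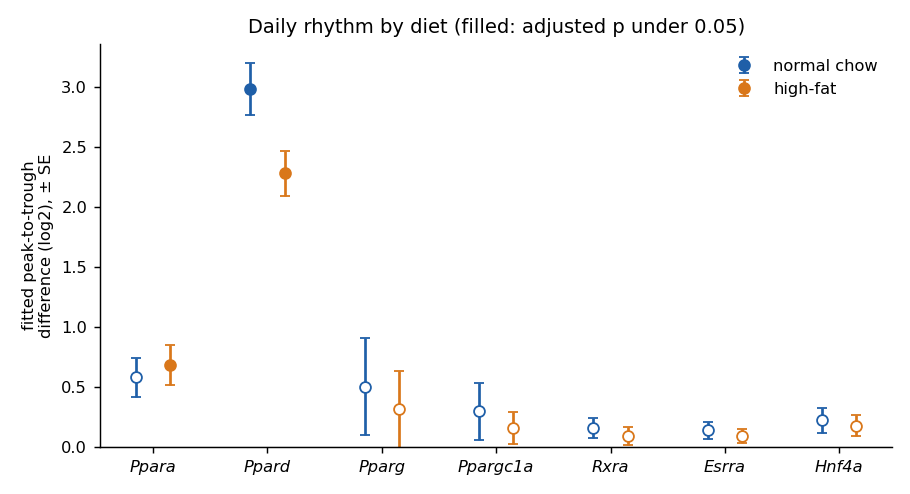
Fitted peak-to-trough difference (log2, vertical axis, points with ± 1 SE) of the 7 tested members under normal chow (blue) and high-fat (orange), filled where the limma adjusted p is under 0.05. Ppard stands at 2.98 and 2.28, and no other member exceeds 0.68.

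Ppargc1b, the second PGC-1 coactivator, was below the filter on low values, so its rhythm was fitted only in the alternative without that filter, over 19103 genes. Its FPKM under normal chow was between 0.925 and 1.37 at ZT0 and ZT4 and between 0.471 and 0.756 at ZT16 and ZT20, with no overlap. The share of all genes with such a gap was not computed. In the fit without the filter the peak-to-trough difference of Ppargc1b under normal chow was 0.63 ± 0.14 (log2, SE) with a peak at 5.31 h (limma, adjusted p = 0.0372). Its values there, 0.471 to 1.57 FPKM, are of the order of the added 0.5. For high-fat the difference was 0.31 ± 0.15 (SE, adjusted p = 0.544), and the test of the difference between diets did not pass (adjusted p = 1).

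The rhythms of the diets were compared directly by the interaction of diet with cosine and sine over all 36 libraries. None of the 7 members passed, and 0.0269% of all genes did (3 of 11144, with 353 at an unadjusted p under 0.05). For Ppard the fitted peak was 1.30 ± 0.44 h earlier under the high-fat diet (phase difference -1.30 h, SE) and the peak-to-trough difference was lower by 0.70 ± 0.30 (high-fat minus chow -0.70, log2, SE), with an unadjusted p = 0.00227 and an adjusted p = 0.972 in limma. For Ppara the phase difference was -0.08 ± 1.45 h and the difference in peak-to-trough size 0.10 ± 0.24 (log2, SE). For scale, the fitted peak of the clock gene Arntl was at 22.1 h for normal chow and 20.8 h for high-fat, and that of the clock output gene Dbp was at 9.71 and 8.24 h. The Ppard peaks, at 22.6 and 21.3 h, were near those of Arntl, but peak times were not tested between genes.

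The level comparison between diets averaged the difference over the 6 times in a fit of 12 group means. Whether the tables of both diets came from 1 normalisation run is not given in the sources, so a difference between runs cannot be told apart from diet. Over genes with at least 1 FPKM in every library, the mean median log2 ratio was 0.02 for normal chow and -0.01 for high-fat libraries. In bulk tissue, fewer cells of a type and less RNA per cell cannot be told apart.

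Among the receptors, Ppara was higher and Ppard lower under the high-fat diet. Mean FPKM of Ppara was 8.24 ± 1.95 for normal chow and 10.2 ± 2.73 for high-fat (SD, n = 18 each), a difference of 0.28 ± 0.07 (log2, SE; 95% interval 0.13 to 0.43) or 1.22-fold (limma, adjusted p = 0.00775). Mean FPKM of Ppard was 19.1 ± 15.5 and 12.3 ± 7.87, a difference of -0.44 ± 0.08 (SE; interval -0.62 to -0.27) or a ratio of 0.735 (limma, adjusted p = 0.00039). With Esrra, 3 of the 7 tested members passed, where 16.6% of all genes did, 5.25% higher and 11.4% lower. Rescaling the libraries kept the calls of Ppara and Ppard but changed the background split, from 68.4% of all calls lower to 49.97% with the median ratio.

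The higher Ppara level was spread over the day. The diets did not overlap at ZT8, ZT12 and ZT20, with ratios of means of 1.31, 1.34 and 1.21. Of all genes, 7.83%, 5.43% and 6.08% were higher without overlap at these times. At ZT0, ZT4 and ZT16 the libraries overlapped, and the ratios of means were 1.28, 1.11 and 1.16. At no single time did the difference pass in limma (adjusted p from 0.429 to 1). The call over the day was lost without the 4 normal chow libraries that held adrenal transcripts (0.19, limma, adjusted p = 0.0725) and with the fat cell marker score as a covariate (0.19, adjusted p = 0.239). That score differed by diet, so the covariate and the diet share part of what they describe.

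The lower Ppard level passed the test at ZT0 and ZT4. At ZT0 all 3 high-fat libraries, at most 24.1, were below all normal chow libraries, at least 42.6. The difference was -1.06 ± 0.21 (log2, SE; 95% interval -1.48 to -0.64; limma, adjusted p = 0.00450), where 1.59% of all genes passed and 12.8% were lower without overlap. It passed in all 17 alternatives, with values from -1.13 to -0.85. At ZT4 the high-fat libraries, at most 8.21, were below the normal chow libraries, at least 10.4, with a difference of -0.97 ± 0.21 (SE; interval -1.40 to -0.55; limma, adjusted p = 0.0121), where 1.61% of all genes passed and 9.43% were lower without overlap.

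The ZT4 call of Ppard depended on few libraries. Without the 4 normal chow libraries with adrenal transcripts the difference was -0.52 (log2). That leaves 1 normal chow library at ZT4, replicate 4, which had the lowest GC slope (-0.40) and summed adrenal markers of 2.62 FPKM. The call was lost without replicate 4 of the high-fat ZT4 group (-0.89, limma, adjusted p = 0.0873) and with the fat cell score as a covariate (-0.87, adjusted p = 0.0877). Summed fat cell markers at ZT4 were 1089 to 2102 under normal chow and 52.8 to 227 under the high-fat diet, and their part in the result was not tested further. At ZT0 the sums overlapped, 134 to 1706 against 144 to 448, and without the libraries with adrenal transcripts the Ppard difference was -1.12 ± 0.21 (SE; adjusted p = 0.0038).

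At the other times no difference of Ppard passed. At ZT20 the high-fat libraries, at most 24.2, were below the normal chow libraries, at least 25.9, with a difference of -0.37 ± 0.21 (log2, SE; limma, adjusted p = 0.911), where 10.3% of all genes were lower without overlap. At ZT8, ZT12 and ZT16 the diets overlapped, and the differences were -0.15, -0.06 and -0.05, each with an SE of 0.21. No member passed at ZT8, ZT12, ZT16 or ZT20, where 0.332%, 0.368%, 0.556% and 0.26% of all genes did. Without ZT0 and ZT4 the difference over the remaining times was -0.16 and did not pass (limma, adjusted p = 0.318). Whether the difference varies over the day is the question of the rhythm interaction above, which did not pass over all genes.

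**Figure D3:**
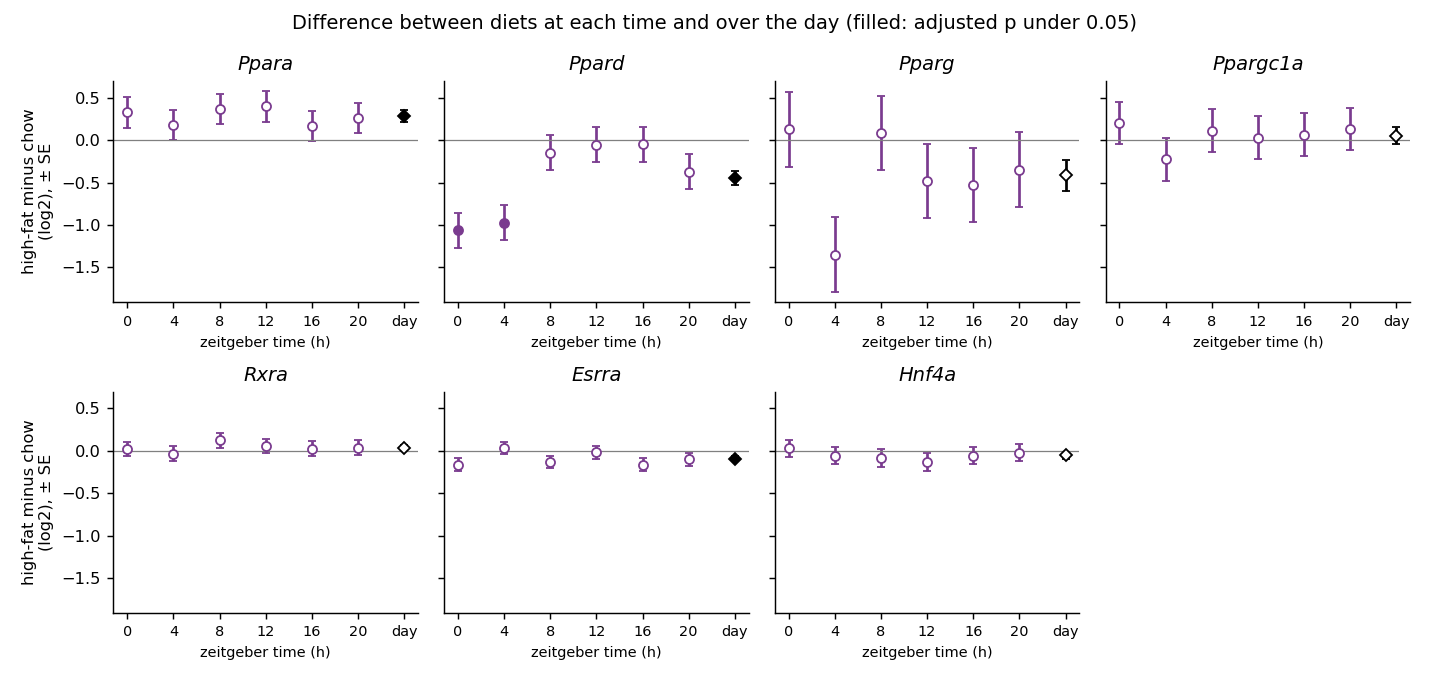
Difference between diets (high-fat minus normal chow, log2, vertical axis, points with ± 1 SE) of the 7 tested members at each zeitgeber time (circles) and over the day (diamonds), filled where the limma adjusted p is under 0.05. Ppard is filled at ZT0 (-1.06) and ZT4 (-0.97), and the day values of Ppara (0.28), Ppard (-0.44) and Esrra (-0.09) are filled.

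Pparg, the receptor of fat cell formation, was low and variable. Its FPKM was 0.559 to 4.86 in normal chow libraries (mean 2.10 ± 1.24, SD, n = 18) and 0.474 to 2.90 in high-fat libraries (1.38 ± 0.693). At ZT4 it was 2.09, 4.43 and 4.86 under normal chow and 1.19, 0.547 and 1.84 under the high-fat diet. These groups did not overlap, as for the 9.43% of all genes that were lower without overlap at ZT4, and the means had a ratio of 0.315, but the difference of -1.35 ± 0.44 (log2, SE) did not pass (limma, adjusted p = 0.111). Over the day the difference was -0.42 ± 0.18 (SE; 95% interval -0.78 to -0.05) and did not pass (limma, adjusted p = 0.113). Leaving out replicate 4 of the normal chow ZT0 group, the lowest normal chow library with 0.559, brought it past the threshold (-0.51, adjusted p = 0.0345).

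Pparg tracked the fat cell transcripts in both diets. The fat cell score of a library is the mean standardised log2 value of 14 markers, among them Adipoq, Cfd and Retn, and Pparg is not one of them. Between diets 11 of the 14 were lower under the high-fat diet, where 11.4% of all genes were. Lep was higher (1.69 ± 0.30, log2, SE; limma, adjusted p = 0.00017), and Ucp1 and Cidea did not pass (adjusted p = 0.541 and 0.124). Under normal chow Pearson's r between the score and log2(FPKM + 0.5) of Pparg was 0.830 (permutation test, two-sided, p = 6e-05, adjusted p = 8e-05) and Spearman's rho 0.837 (permutation p = 2e-05, adjusted p = 4e-05). For high-fat r was 0.790 (permutation p = 2e-05, adjusted p = 4e-05) and rho 0.812 (permutation p = 0.00012, adjusted p = 0.00012). These are 4 relations over 18 libraries each with 100000 resamples, and 2e-05 is the smallest p they can give. Without the 2 libraries farthest from the median score r was 0.740 under normal chow (permutation p = 0.00096) and 0.795 under the high-fat diet (p = 0.00034). Without the 4 libraries with adrenal transcripts the normal chow r was 0.765 (permutation p = 0.00062). With the score as a covariate the diet difference of Pparg was 0.20 (limma, adjusted p = 0.499), the opposite sign of the difference without it.

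**Figure D4:**
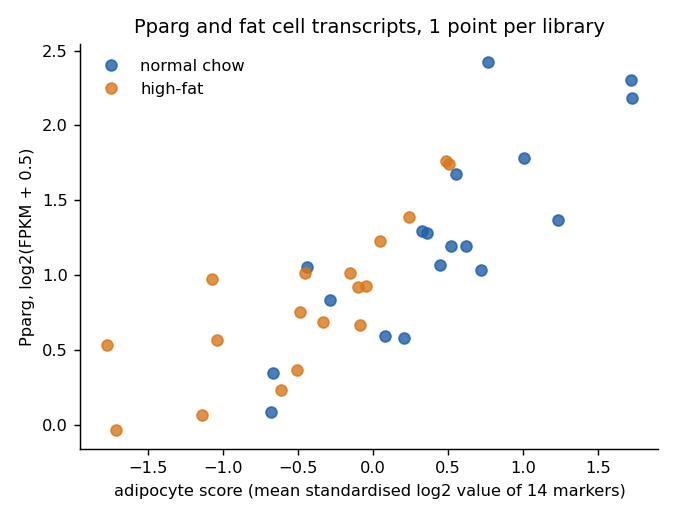
Pparg level (log2(FPKM + 0.5), vertical axis) against the fat cell score (horizontal axis, mean standardised log2 value of 14 markers), 1 point per library, normal chow in blue and high-fat in orange. Within each diet Pparg rises with the score, with r = 0.830 and 0.790.

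No test of the coactivators passed between diets. Ppargc1a, which encodes PGC-1 alpha, was between 2.09 and 7.21 FPKM under normal chow and between 2.86 and 5.33 under the high-fat diet, with means of 3.46 ± 1.18 and 3.501 ± 0.627 (SD, n = 18). The highest and the lowest normal chow values were both at ZT4, in replicates 4 and 2, the libraries at the extremes of the GC slope, whose part in these values was not tested. The difference over the day was 0.05 ± 0.10 (log2, SE; 95% interval -0.16 to 0.26; limma, adjusted p = 0.786). Its sign was negative in 3 of 47 alternatives. Ppargc1b averaged 0.944 ± 0.305 and 0.863 ± 0.228 FPKM, and without the filter its difference was -0.07 ± 0.07 (log2, SE; limma, adjusted p = 0.605). At ZT20 its high-fat libraries, 0.866, 0.955 and 0.816, were above the normal chow ones, 0.727, 0.471 and 0.633, where 6.08% of all tested genes were higher without overlap.

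Rxra, Esrra and Hnf4a were the most even members. The coefficient of variation over 18 libraries was 8.36% and 7.95% for Rxra, 7.02% and 5.48% for Esrra, and 11.6% and 10.3% for Hnf4a (normal chow, then high-fat), against 81.6% and 64.0% for Ppard. Rxra averaged 27.8 ± 2.32 and 28.5 ± 2.27 FPKM, a difference of 0.04 ± 0.03 (log2, SE; 95% interval -0.03 to 0.11; limma, adjusted p = 0.504). Hnf4a averaged 144 ± 16.7 and 139 ± 14.3 FPKM, a difference of -0.05 ± 0.04 (interval -0.14 to 0.03; adjusted p = 0.414), which passed only without the libraries with adrenal transcripts (-0.11, adjusted p = 0.0481).

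Esrra was slightly lower under the high-fat diet, at 72.0 ± 5.06 against 67.5 ± 3.70 FPKM (SD, n = 18 each). At ZT0 it was 72.4, 74.4 and 70.9 under normal chow and 66.9, 62.7 and 64.3 under the high-fat diet. At ZT16 it was 78.0, 73.8 and 74.8 against 63.9, 67.4 and 71.1. The diets did not overlap at these times, where 12.8% and 8.06% of all genes were lower without overlap, and overlapped at the other 4. The difference over the day of -0.09 ± 0.03 (log2, SE) or a ratio of 0.939 passed narrowly (limma, adjusted p = 0.0407). It was lost in 27 of 48 alternatives and its sign turned in 2 more. With the median ratio it was -0.06 (adjusted p = 0.266), and after GC correction it was 0.0058 (adjusted p = 0.912).

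Genes with the most similar profile over the 12 group means (Pearson's r, mean FPKM of at least 5, unnamed gene models left out) were picked for each tested member as a description. For Ppard they were Palm3 (0.976), Mif4gd (0.957) and Pi4k2a (0.935). For Ppara they were Pou3f3 (0.975), Ugdh (0.971) and Dnajc12 (0.965). For Pparg they were Fabp4 (0.928), Gins4 (0.912) and Plin1 (0.905), of which Fabp4 and Plin1 encode a fatty acid carrier and a lipid droplet coat protein of fat cells. For Ppargc1a the closest was March5 (0.962), for Rxra Cct5 (0.961), for Esrra Klc4 (0.883) and for Hnf4a Rab11a (0.927). These r values come from 12 points that share libraries and depth, and the highest of many genes are high by selection.

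Genes of the pathway were taken from 3 lists of known targets, 1 of partners and related receptors and 1 of coactivators and corepressors. The lists were chosen with earlier results of these data known, so a share above that of all genes can come from the choice. Of 46 listed PPAR alpha and delta targets, 42 were tested, and under the high-fat diet 9 were higher and 2 lower. These are 26.2% of the tested targets, where 16.6% of all genes passed, and the median difference was 0.05 against -0.03 over all 11144 genes. Vnn1, a pantetheinase, was higher by 0.37 ± 0.06 (log2, SE; limma, adjusted p = 4.48e-05) and Acadvl, the very-long-chain acyl-CoA dehydrogenase of mitochondria, by 0.17 ± 0.03 (adjusted p = 0.000557). The 2 that fell were Fabp3, a fatty acid carrier (-0.35 ± 0.06, limma, adjusted p = 7.32e-05), and Cidec, a lipid droplet protein of fat cells that was named after its value was seen (-1.62 ± 0.42, adjusted p = 0.00711). Without replicate 4 of the normal chow ZT4 group 12 targets were higher and 5 lower, where 985 and 1753 of all genes were. With the fat cell score as a covariate the counts were 5 and 1, where 275 and 545 of all genes were. Over all genes the main fit gave 585 and 1265. Without the libraries with adrenal transcripts (1 normal chow library left at ZT4) the list median was 0.06 against -0.05 over all genes.

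Daily rhythms passed for 4 of the 42 targets in normal chow libraries (9.52%, where 7.77% of all genes did) and 6 in high-fat libraries (14.3%, where 7.3% did). Vnn1 passed under normal chow (0.73 log2 peak to trough, peak at 10.6 h). So did Cpt1a, the gate of mitochondrial fatty acid import (0.66, 9.33 h), and Eci2, an enoyl-CoA isomerase (0.43, 11.8 h). Acot1, an acyl-CoA thioesterase, passed in both diets, with a peak at 22.3 h under normal chow (0.66) and 21.9 h under the high-fat diet (0.75). Peak times of targets were not tested against those of the receptors. In the high-fat libraries Fabp3 (0.66, 9.72 h), Aqp7, a glycerol channel (0.84, 7.33 h), and Slc25a20, the carnitine-acylcarnitine carrier (0.39, 15.8 h), passed as well. Without ZT0 and ZT4 the counts were 2 for normal chow and 1 for high-fat, where 280 and 256 of all genes passed.

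HNF4A targets held 12 tested genes of 16, and 5 were higher and 2 lower (58.3%, where 16.6% of all genes passed), with a median difference of 0.19 against -0.03 over all genes. As this list too was chosen with earlier results known, the share is not a test of HNF4A targets. Ttr, which encodes transthyretin, was 44.7 to 153 FPKM in normal chow libraries and 156 to 302 in high-fat libraries without overlap (1.42 ± 0.14, log2, SE; limma, adjusted p = 2.74e-08). Pck1, the rate-limiting enzyme of gluconeogenesis, was 288 to 919 and 669 to 1938 FPKM (1.24 ± 0.09, adjusted p = 1.00e-10). Pklr, a pyruvate kinase, was 9.06 to 13.4 and 13.8 to 20.1 FPKM without overlap (0.60 ± 0.06, adjusted p = 2.80e-08). Ttr and Pklr were named for their low p, and the share of all genes without such overlap was not computed. Fbp1 (0.24) and G6pc (0.48), further enzymes of glucose production, were the others that were higher, both named after their values were seen. Apom (-0.63 ± 0.06, limma, adjusted p = 3.00e-08) and Apoc3 (-0.44 ± 0.14, adjusted p = 0.0380), both apolipoprotein genes, were lower, the second named after its value was seen, while Hnf4a itself did not pass. Only 1 of the 12, Apom, was lower under either rescaling, with the fat cell score (list median 0.10) and without ZT0 and ZT4. In each of these 5 or 6 were higher. Of all genes, 836 were higher and 835 lower with the median ratio, and 840 and 836 with the upper quartile. The score gave 275 and 545, and leaving out ZT0 and ZT4 gave 669 and 871. Without the libraries with adrenal transcripts the list median was 0.17 against -0.05 over all genes.

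PGC-1 and ERR targets, mostly genes of the mitochondrial respiratory chain and the citric acid cycle, held 30 tested genes, of which 0 were higher and 3 lower (10%, where 16.6% of all genes passed, with a median of 0.01). These were Ckmt1, a mitochondrial creatine kinase (-0.27 ± 0.04, log2, SE; limma, adjusted p = 1.12e-05), Nrf1, a transcription factor of mitochondrial genes (-0.19 ± 0.05, adjusted p = 0.00364), and Cs, citrate synthase (-0.10 ± 0.03, adjusted p = 0.0204). With GC correction 4 were higher and 2 lower, where 1123 and 1006 of all genes were. Without ZT0 and ZT4 the counts were 1 and 1, where 669 and 871 of all genes were. Cs did not pass under either rescaling (limma, adjusted p = 0.206 and 0.205). None of the 30 passed for a rhythm in either diet in limma, and at most 4 for normal chow and 9 for high-fat passed in any alternative. Of 21 tested coactivators and corepressors, Sirt3 (0.17 ± 0.04, limma, adjusted p = 0.00484) and Cited2 (0.28 ± 0.09, adjusted p = 0.0258) were higher and 0 lower (9.52%, where 16.6% of all genes passed). Neither passed with the fat cell score as a covariate. Without the libraries with adrenal transcripts the list median was -0.06, against -0.05 over all genes. Of 13 tested partners and related receptors 0 passed for level. In these lists Lpin1, a phosphatidate phosphatase that acts as a PGC-1 alpha partner, was rhythmic in both diets (0.73 with a peak at 12.3 h, and 0.68 at 10.2 h), and Thra, a thyroid hormone receptor, under normal chow (0.71, 2.84 h).

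**Figure D5:**
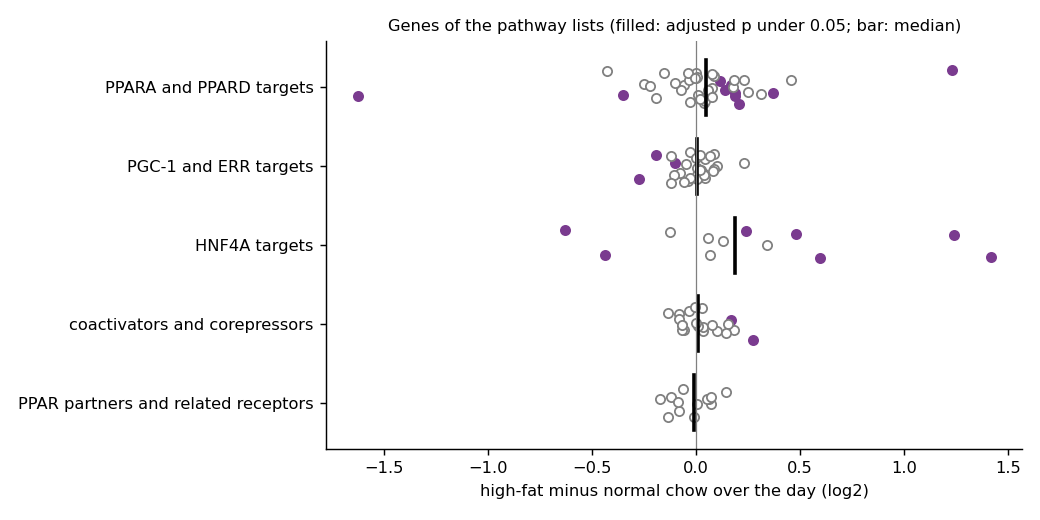
Difference between diets over the day (high-fat minus normal chow, log2, horizontal axis) of each tested gene in 5 lists of targets, partners and cofactors (vertical axis, 1 point per gene), filled where the limma adjusted p is under 0.05, with a black bar at each list's median. Among the genes drawn, Ttr at 1.42 and Pck1 at 1.24 lie farthest to the right (1 gene of the PPARA and PPARD targets is not drawn but enters the median), and the list medians lie between -0.01 and 0.19.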

How the data were processed

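RNA from whole kidney was sequenced in 36 libraries. TRIzol extraction and the TruSeq RNA v2 guide are named per the labels' protocols. The authors made the values with CASAVA 1.8.2, Bowtie and Cuffnorm on mouse build mm10, per the submitters' processing notes, with no version given for the last 2 in the sources used here. The deposited values are FPKM, 1 table per diet with the same 24883 rows; 817 rows of 280 repeated symbols were left out. All value columns were used, and no pair of libraries was identical.

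Groups and times came from the titles. The members and gene lists were chosen with earlier results of these data known. Tests used limma 3.58.1 with a trended prior in R 4.3.3 on log2(FPKM + 0.5) over 11144 genes with a mean of at least 1 FPKM, with Benjamini-Hochberg adjustment at 0.05, and were tested on simulated data. No count model was used because FPKM are not counts. Relative depth came from 1315 genes detected in 3 to 10 libraries, whose low values were whole multiples of the smallest step in 91.1% of cases (tolerance 0.05). Named genes were all members, up to 4 called genes per list and comparison by p, and the 3 most similar genes per member; 1 listed gene is not reported here but stays in the counts. Alternatives covered pseudocounts of 0.1 and 1, no filter or a mean of at least 5, rescaling by median ratio or upper quartile, the replicate block, a fat cell score, GC correction (96.5% of tested genes had a GC value), time as a factor, 1 fit over both diets, and leaving out libraries. The labels number the replicates and the design text gives 3 mice per group, but nothing else says how mice were housed or processed together.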

Additional observations from a re-analysis of the deposited data

How the results depend on the processing

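Over all alternatives, Ppard kept its rhythm in both diets and its lower level at ZT0, while other member calls moved as given with the results. Replicate numbers were not taken to pair the samples, since not every pair's correlation of deviations was over 0.1: same-numbered libraries had a median of 0.04 with 39 of 119 pairs above it, those of the same time in the other diet 0.098 with 6 of 12, and libraries of other numbers -0.0040 with 139 of 475. With the replicate block 446 genes had a rhythm under the high-fat diet instead of 813, 0 instead of 3 differed in rhythm between diets (1 with the GC correction and the block), and 41 instead of 62 at ZT16 and 14 instead of 29 at ZT20 differed in level. Among members, the block brought the normal chow rhythm of Ppara past the threshold (limma, adjusted p = 0.00593; 0.00384 with GC correction), and with GC correction also that of Esrra (0.0138). It ended the call of the Esrra level (adjusted p = 0.0676) and changed no other member's call, and 1 of the 42 PPAR alpha and delta targets had a high-fat rhythm instead of 6.

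For normal chow rhythms the count of 866 genes became 523 without the libraries with adrenal transcripts, 280 without ZT0 and ZT4, 375 with time as a factor and 1627 in 1 fit over both diets, which gave Ppara an adjusted p of 0.0437 (limma). For high-fat rhythms it became 256 without ZT0 and ZT4, 1239 with GC correction and 3166 with time as a factor. The rhythm difference gave 0 without ZT0 and ZT4. The level count of 1850 became 820 with the fat cell score. By time, GC correction gave 276 at ZT0 instead of 177, 307 at ZT4 instead of 179, 62 at ZT8 instead of 37, 76 at ZT12 instead of 41, 101 at ZT16 and 48 at ZT20. The fat cell score gave 86 at ZT4 and 6 at ZT12. A mean of at least 5 FPKM gave 117 at ZT4, no filter 38 at ZT16 and the median ratio 18 at ZT20. Without the libraries with adrenal transcripts, an alternative chosen after seeing the data, 269 genes passed at ZT0 and 4937 at ZT4, where 1 normal chow library was left. The cause was not tested.

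Leaving out 1 library at a time gave 603 to 1143 and 606 to 795 rhythmic genes (normal chow, high-fat), 0 to 4 that differed in rhythm and 1572 to 2738 in level. By time it gave 77 to 214 (ZT0), 49 to 1803 (ZT4), 13 to 31 (ZT8), 13 to 22 (ZT12), 9 to 41 (ZT16) and 9 to 23 (ZT20). The share of level calls that were lower was 68.4%, and 49.97%, 49.9%, 47.3% and 56.6% with the median ratio, the upper quartile, GC correction and without ZT0 and ZT4. The median level difference of all genes was -0.031, and -0.0018, 0.00036 and -0.0050 with the median ratio, the upper quartile and GC correction.

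Signs turned for Pparg with the fat cell score (0.20), for Ppargc1a with that score (-0.051), without the libraries with adrenal transcripts (-0.10) and without replicate 2 of normal chow ZT4 (-0.010; leaving out 1 library gave -0.010 to 0.12), and for Esrra with GC correction (0.0058, and 0.000309 with the block). None of these turned values passed the threshold. Absolute depth is unknown, so what it limits was not measured.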
